A study of Rattus norvegicus and Mus musculus with 74 samples.

Results

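The regions described here were compact stretches of promoter chromatin in rat and mouse brain cortex that held a CpG island and at least 2 annotated promoters. Each was a row of the authors' merged region tables that listed 2 or more promoters and 1 to 3 CpG islands and was at most 10000 bp long from start to end. No signal value entered this choice, although the length of a merged region may depend on the intervals called in the libraries. The rule found 595 of 72824 regions in the rat (0.817%) and 527 of 60110 in the mouse (0.877%), or 1122 of 132934 in all. The study mapped 4 histone marks, H3K4me3, H3K9Ac, H3K27me3 and H3K9me3, by chromatin immunoprecipitation and sequencing, with 3 libraries for each mark and group. Rats were Sprague-Dawley animals of 3 groups: healthy controls given vehicle, animals exposed before birth to valproic acid (VPA) and given vehicle, and VPA-exposed animals given TAK-418. Mice were C57BL/6J animals of 3 groups: healthy controls given vehicle, animals exposed before birth to poly I:C and given vehicle, and poly I:C-exposed animals given TAK-418. Controls received vehicle as the exposed vehicle animals did, so the exposure separates those 2 groups, and no group combined TAK-418 with an unexposed animal. TAK-418 is an inhibitor of LSD1 (Kdm1a), an enzyme that removes methyl groups from histone H3 lysine 4. VPA inhibits histone deacetylases, and poly I:C is a double-stranded RNA mimic that triggers a maternal immune response. Ages and doses were not used here. The labels number the replicates without saying that they were separate animals, so the p-values measure the spread between these libraries, which may in part be technical.

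A CpG island that lies between genes transcribed away from each other can serve both as a bidirectional promoter. Such shared islands are known to drive many housekeeping genes, among them genes of DNA repair, translation and mitochondria, and are usually free of DNA methylation. Nucleosomes beside an active island carry H3K4me3, written by SET1 and MLL enzymes, and H3K9Ac, written by lysine acetyltransferases such as GCN5 and PCAF. Islands of genes kept silent by Polycomb carry H3K27me3 instead, at times together with H3K4me3, and H3K9me3 marks heterochromatin and some imprinted alleles.

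Most of these regions held a single pair of promoters. In the rat 554 listed 2 promoters, 36 listed 3 and 5 listed 4 or more, with a maximum of 6. In the mouse the counts were 489, 31 and 7, with a maximum of 7. A single island was present in 564 rat and 504 mouse regions. Lengths from start to end ran from 199 to 9999 bp with a median of 6999 bp in the rat, and from 399 to 9999 bp with a median of 7799 bp in the mouse. Chromosome X held 21 of the rat regions and 48 of the mouse regions. The promoter count includes small RNAs and repeated entries of a gene: 448 rat and 347 mouse regions listed 2 or more named genes, 137 and 167 listed 1, 10 and 13 listed only unnamed gene models, 15 and 21 listed a miRNA, and 21 rat regions listed a tRNA. Of 607 named gene pairs in the rat regions and 569 in the mouse regions, 189 occurred in both, which is 31.1% of the rat pairs and 33.2% of the mouse pairs.

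In the rat, RefSeq gene starts (assembly GRCr8) placed the nearest pair of 177 regions (29.7%) within 1000 bp of each other in the divergent orientation, with 21 to 995 bp and a median of 234 bp between the starts. A further 14 regions held head-to-head genes whose starts overlapped, 2 held a close pair on the same strand, and 217 could not be placed. The nearest pair of the other 185 lay more than 1000 bp apart in GRCr8, with a median of 8291 bp and a maximum of 2848702 bp. Gaps over 10000 bp exceed the longest region allowed. The starts were matched by symbol in GRCr8 and the regions are from rn5, so such gaps do not show where the rn5 starts lie. The 5 sequences that follow show how little DNA separates close pairs and what it contains. They were taken from RefSeq (GRCr8), read 5′ to 3′ on the plus strand, and run from 250 bases before to 50 bases after a gene's start, which is position 251 counted from 1 at the 5′ end. Capitals mark the letters CCGGAAG (the core bound by ETS factors), GGGCGG (bound by SP and KLF factors) and CCAAT (bound by NF-Y), on either strand. In the first 4 the start of the other gene also lies inside the window, on the opposite strand. Ercc8, a transcription-coupled DNA repair gene, starts 138 bp from Ndufaf2, which encodes a complex I assembly factor, with the Ndufaf2 start at position 113 (chr2:41380651-41380950). Rars2, the mitochondrial arginyl-tRNA synthetase, starts 79 bp from Orc3 of the origin recognition complex, at position 172 (chr5:53977623-53977922). Abce1, a ribosome recycling factor, starts 53 bp from Anapc10 of the anaphase-promoting complex, at position 198 (chr19:45109685-45109984). Scrn3, a secernin, starts 89 bp from Cir1, a transcriptional corepressor, at position 162 (chr3:78596148-78596447). The Pih1d3 window (chrX:108512752-108513051) is shown because the region of Pih1d3, a dynein assembly factor, and Nup62cl carried H3K27me3 in control cortex of the rat. Its partner starts 337 bp away, outside the window.
Ndufaf2/Ercc8: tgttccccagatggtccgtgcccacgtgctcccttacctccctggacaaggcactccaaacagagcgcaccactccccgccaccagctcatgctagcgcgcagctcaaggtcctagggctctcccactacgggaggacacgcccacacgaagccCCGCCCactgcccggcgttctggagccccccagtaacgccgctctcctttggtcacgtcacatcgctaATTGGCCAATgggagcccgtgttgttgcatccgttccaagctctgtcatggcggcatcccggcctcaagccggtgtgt
Orc3/Rars2: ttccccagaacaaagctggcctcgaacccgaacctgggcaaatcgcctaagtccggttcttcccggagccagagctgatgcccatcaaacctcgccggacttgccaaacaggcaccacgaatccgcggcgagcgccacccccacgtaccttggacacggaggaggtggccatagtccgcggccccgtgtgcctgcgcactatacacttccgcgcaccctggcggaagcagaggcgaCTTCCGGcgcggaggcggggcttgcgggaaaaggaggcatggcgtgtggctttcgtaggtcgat
Anapc10/Abce1: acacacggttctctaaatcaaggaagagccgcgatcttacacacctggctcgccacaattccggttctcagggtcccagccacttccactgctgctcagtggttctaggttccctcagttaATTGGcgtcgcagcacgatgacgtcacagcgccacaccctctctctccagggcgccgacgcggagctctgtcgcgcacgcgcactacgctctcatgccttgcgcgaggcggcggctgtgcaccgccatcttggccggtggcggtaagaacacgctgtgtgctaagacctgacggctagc
Cir1/Scrn3: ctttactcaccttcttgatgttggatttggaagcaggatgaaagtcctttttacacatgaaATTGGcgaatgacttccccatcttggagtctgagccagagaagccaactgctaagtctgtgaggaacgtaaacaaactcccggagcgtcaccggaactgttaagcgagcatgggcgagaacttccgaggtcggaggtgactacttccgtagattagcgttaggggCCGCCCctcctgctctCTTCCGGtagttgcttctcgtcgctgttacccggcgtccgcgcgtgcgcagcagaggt
Pih1d3/Nup62cl: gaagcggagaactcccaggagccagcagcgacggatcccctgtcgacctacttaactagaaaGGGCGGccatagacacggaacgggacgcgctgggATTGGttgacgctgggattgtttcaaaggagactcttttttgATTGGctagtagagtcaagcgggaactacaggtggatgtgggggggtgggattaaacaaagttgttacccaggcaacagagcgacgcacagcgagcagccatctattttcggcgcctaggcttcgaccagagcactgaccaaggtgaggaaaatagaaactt

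These letters were counted in the same windows of all 33469 rat promoters of the sequence table. CCGGAAG occurred in 30.2% of the 354 promoters of close divergent pairs, 24.1% of the 967 promoters of genes listed with the regions, and 8.75% of all promoters. GGGCGG occurred in 66.9%, 57.8% and 33.1% of the same sets. CCAAT was nearly as frequent everywhere, at 45.5%, 40.1% and 37.5%. The TATA box letters TATAAA went the other way, at 2.54%, 5.27% and 14.2%. The cyclic AMP response letters TGACGTCA occurred in 5.08%, 3.83% and 1.83%, the YY1 motif in 2.54%, 2.90% and 0.675%, the ZBTB33 motif in 2.26%, 1.34% and 0.373%, and the NRF1 motif in 1.69%, 2.38% and 0.852%. All searches covered both strands, and none of these motifs contains another. The windows of partners in a close pair overlap, so those 354 are not independent sequences. Median GC content was 61.7%, 59.7% and 51.7%, and the median number of CG steps per window was 24, 21 and 7. Among the 177 close pairs, the 134 with GGGCGG had a median control H3K4me3 signal of 27.3 against 22.8 in the other 43, while the 66 with CCGGAAG had 25.3 against 26.2 in the other 111. Those levels are descriptions without a test.

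The regions with the most promoters included miRNA clusters, and 3 rat regions that hold paralogous miRNAs with shared seeds are described here. A seed, bases 2 to 8 of a miRNA, is the part that pairs with target mRNAs. The mature sequences are shown, from RefSeq with GRCr8 positions, because the 3 regions share miRNA seeds and had different levels of the marks. Of 32 miRNA genes listed with rat regions, 31 matched the table. Capitals mark the seed. The Mir17-1 to Mir92a-1 cluster lies on chromosome 15, Mcm7 with Mir25, Mir93 and Mir106b on chromosome 12, and the Mir363 to Mir17-2 cluster on chromosome X. The seed AAAGUGC was shared by 5 miRNAs across all 3 regions, AUUGCAC by 3 miRNAs across all 3, and GUGCAAA by 2 miRNAs found in 2 of them. A further seed, GGCAGUG, was shared by 4 miRNAs of 2 other rat regions, not printed here. These are Mir34b and Mir34c with Btg4, and Mir449a and Mir449c with Gpx8. The last 2 lines give miR-132 and miR-212, neuronal miRNAs that share a seed and lie in the Smg6 and Hic1 region described further on.
rno-miR-17-5p: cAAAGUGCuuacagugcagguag
rno-miR-20a-5p: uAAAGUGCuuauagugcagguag
rno-miR-20b-5p: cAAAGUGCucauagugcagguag
rno-miR-93-5p: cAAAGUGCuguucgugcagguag
rno-miR-106b-5p: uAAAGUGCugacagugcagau
rno-miR-25-3p: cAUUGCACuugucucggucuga
rno-miR-92a-3p: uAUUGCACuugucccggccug
rno-miR-363-3p: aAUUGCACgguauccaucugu
rno-miR-19a-3p: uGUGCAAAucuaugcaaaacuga
rno-miR-19b-3p: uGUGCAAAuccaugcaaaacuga
rno-miR-132-3p: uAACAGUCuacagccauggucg
rno-miR-212-3p: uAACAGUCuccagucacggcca

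In control cortex the regions were dominated by the active marks. Signal is the authors' mean signal of a library over the region, an average over its length, so a short region centred on the mark reads higher than a long one. The median control H3K4me3 signal of the rat regions was 23.7, with a highest value of 61.8, and 97.1% had an H3K4me3 interval (a called enriched interval) in all 3 controls. Compact island regions with 1 promoter had a median of 21.7 and 94.8%, longer island regions with several promoters 11.5 and 96.5%, compact regions with several promoters but no island 1.27 and 29.2%, and all rat regions 1.17 and 17.4%. The median H3K9Ac signal was 9.01 in the rat regions, 8.49 with 1 promoter, 5.92 in longer regions, 1.75 without an island and 1.33 over all. In the mouse the H3K4me3 medians were 15.9, 14.6, 9.91, 1.73 and 1.55 in the same order, and the H3K9Ac medians 7.66, 7.05, 7.29, 2.18 and 1.78. The classes differ in length and CpG content, and their levels are given as a description without a test. The step from 1 to several promoters was small beside the step from no island to an island.

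The repressive marks were low. Median control H3K27me3 signal was 1.82 in the rat regions against 1.60 over all regions, and 2.06 against 2.10 in the mouse. An H3K27me3 interval was present in all 3 controls of 4.20% of rat regions and 2.85% of mouse regions, against 10.7% and 7.42% of all regions. The shares were 12.6% and 4.40% in compact island regions with 1 promoter, and 40.5% and 27.9% in the longer island regions. A longer region can overlap more intervals, and length was part of the rule, so the contrast with the longer class depends on the rule. Median H3K9me3 signal was 1.62 against 1.79 over all regions in the rat and 1.77 against 2.75 in the mouse. An H3K9me3 interval was present in all 3 controls of 0.168% of the rat regions against 7.27% of all, and of 0 mouse regions against 5.90% of all. Low H3K9me3 was shared with the compact island regions with 1 promoter. Their medians were 1.62 in the rat and 1.78 in the mouse, and 0.549% and 0.388% had an interval in all 3 controls. The length limit itself marked no step: the 77 rat regions of 9000 to 10000 bp had median H3K4me3 and H3K9Ac signals of 20.5 and 8.25, and the 78 otherwise like regions of 10001 to 11000 bp had 19.7 and 7.51. In the mouse the 116 regions inside that limit had 16.1 and 8.32, and the 136 outside it 15.7 and 8.15.

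**Figure D1:**
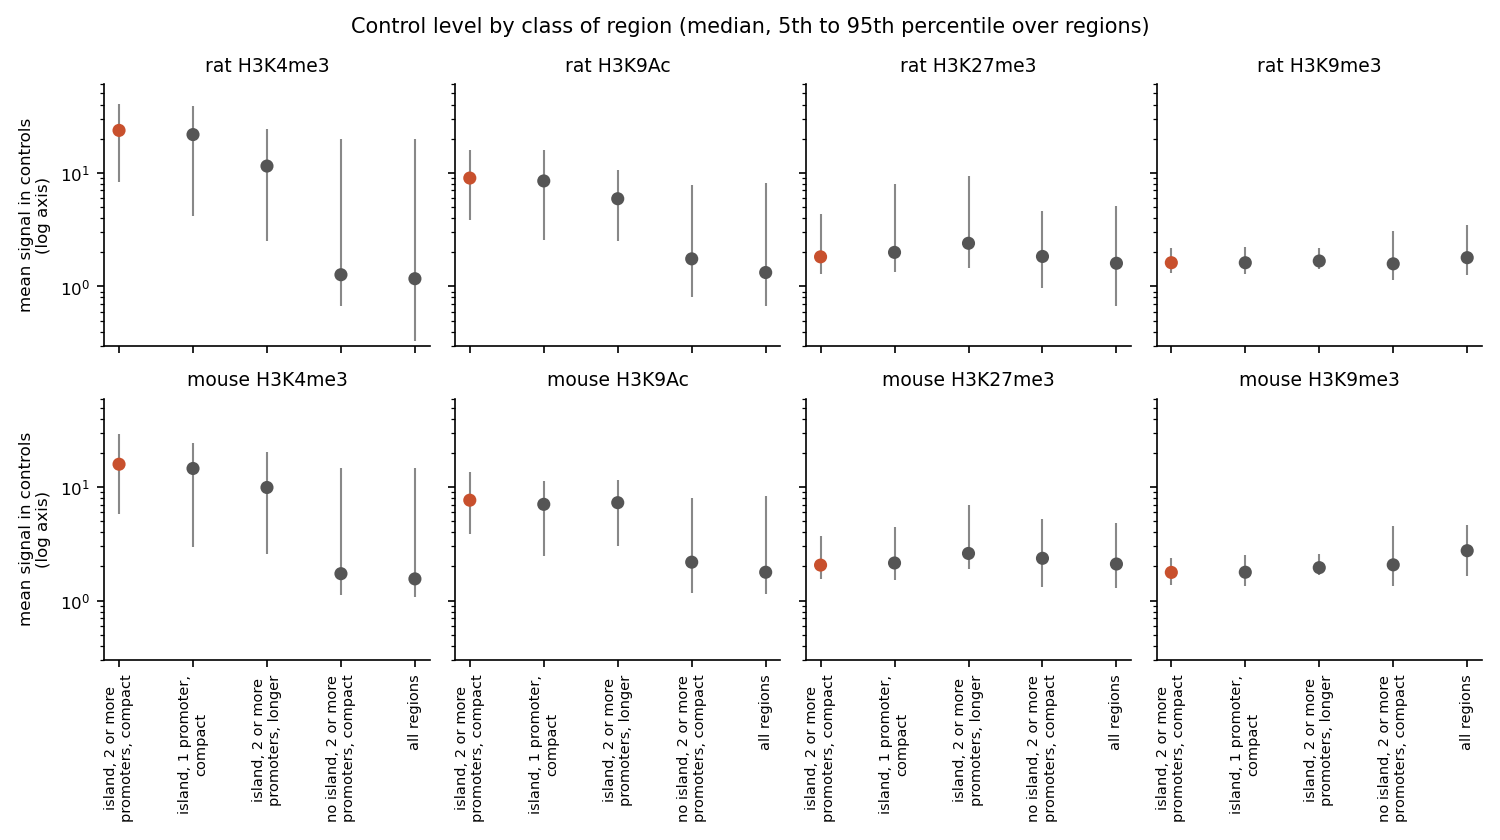
Control signal of the 4 marks in 5 classes of regions, rat above and mouse below, on a log axis; points are medians over regions and bars run from the 5th to the 95th percentile. The compact island regions with several promoters (red) sit at 23.7 for rat H3K4me3 and 15.9 for mouse H3K4me3, beside the island regions with 1 promoter and far above the regions without an island.

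Across the regions the active marks ranked alike: Spearman's rho between control H3K4me3 and H3K9Ac was 0.911 over the 595 rat and 0.897 over the 527 mouse regions, which share length, base composition and chromatin source. The rank correlation of H3K4me3 with H3K27me3 was 0.179 in the rat and -0.159 in the mouse. The 189 shared gene pairs gave 136 different pairs of regions between the species, and a region can enter more than 1 of them. Over these 136 the control levels ranked with a rho of 0.673 (H3K4me3), 0.656 (H3K9Ac), 0.446 (H3K27me3) and 0.428 (H3K9me3). The highest rat H3K4me3 signals belonged to Morc2, a chromatin ATPase of the silencing machinery (61.8 ± 9.00, SD, n = 3), and Jun, a subunit of the AP-1 transcription factor (56.5 ± 13.7, SD, n = 3). Rat close divergent pairs had a median control H3K4me3 of 25.8, head-to-head overlapping pairs 30.7 and pairs over 1000 bp apart 20.3. The last class includes pairs whose GRCr8 starts lie further apart than a region is long.

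The libraries differed in overall level, which bears on every comparison of groups that follows. The sequencing depth is unknown, and the scaling between libraries was not given in the sources used here. Regions with a called interval in at least 3 of the 9 libraries of a mark were tested, which kept 587 of 595 rat regions with H3K4me3, 579 with H3K9Ac, 48 with H3K27me3 and 17 with H3K9me3, and 494, 477, 24 and 4 of 527 in the mouse. For rat H3K4me3 the median signal of the tested regions was 19.5, 26.6 and 24.3 in the controls, 29.5, 31.5 and 30.4 in the VPA vehicle group and 39.4, 27.6 and 42.0 in the VPA TAK-418 group. For rat H3K9Ac it was 9.94, 8.83 and 8.68, then 19.2, 20.4 and 12.4, then 12.0, 13.1 and 9.47. For mouse H3K4me3 it was 23.5, 12.6 and 11.8 in the controls, 11.2, 10.0 and 10.5 in the poly I:C vehicle group and 11.1, 9.69 and 11.2 in the poly I:C TAK-418 group, and for mouse H3K9Ac 10.2, 7.13 and 5.95, then 5.89, 4.57 and 5.28, then 5.50, 5.05 and 4.57. Mouse control replicate 1 was the highest library for both marks, VPA vehicle replicate 3 the lowest of its group for rat H3K9Ac, and VPA TAK-418 replicate 2 the lowest of its group for rat H3K4me3. In cortex of mixed cells, fewer cells of a type and less mark per cell cannot be told apart. As a check of the labelled tissue, control H3K4me3 at excitatory cortical neuron genes was 9.84 to 18.8 in the rat and 6.40 to 13.5 in the mouse, at genes of other organs 1.86 to 4.68 and 1.51 to 2.21, and at striatal genes 2.13 to 3.53 and 2.54 to 4.38. The pan-neuronal genes measured 1.33 (Syt1), 4.57 (Rbfox3) and 23.4 (Snap25) in the rat, so that 2 of 3 were below the highest gene of other organs, and 4.34 (Rbfox3) to 21.8 (Syt1) in the mouse.

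**Figure D2:**
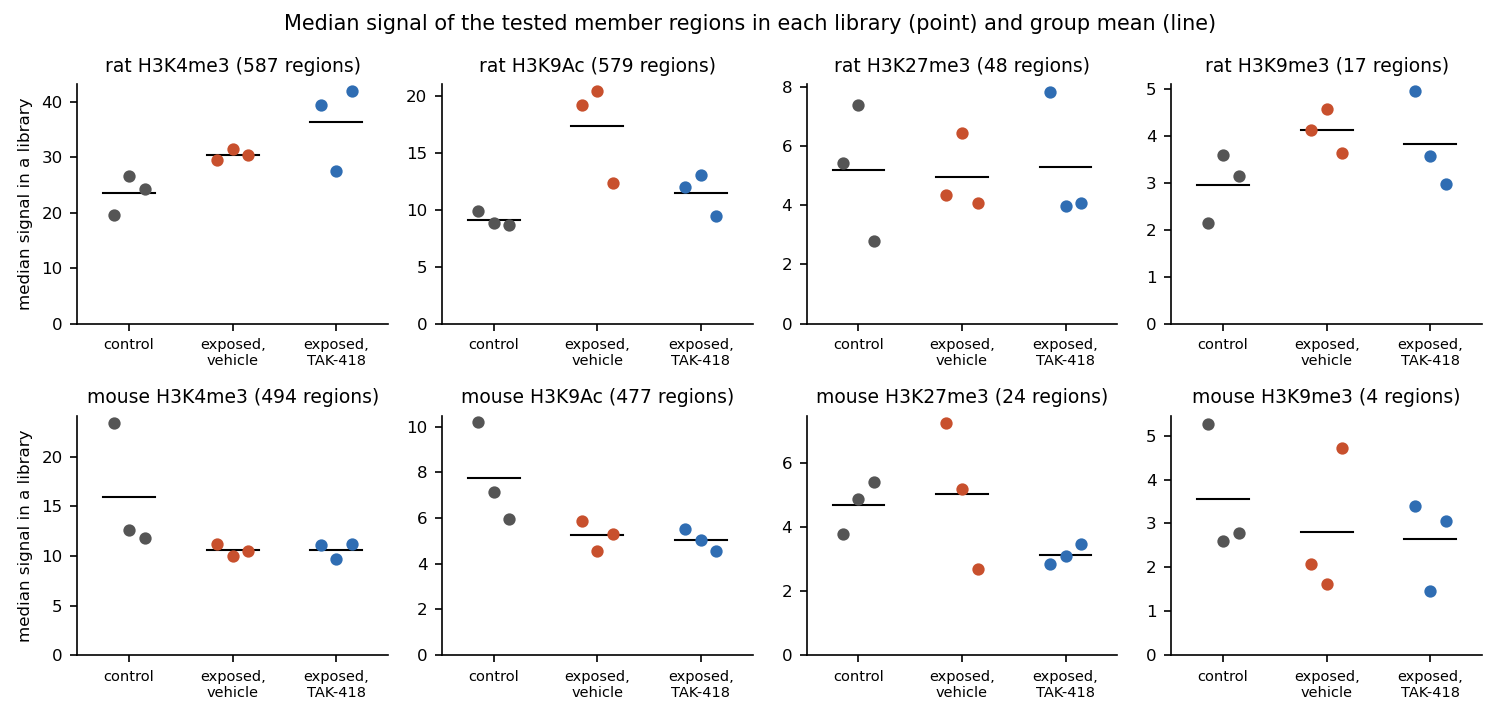
Median signal of the tested compact island regions with several promoters in every library (points) and the mean of each group (lines), for 4 marks in rat and mouse, from 0. Rat H3K9Ac lies at 19.2, 20.4 and 12.4 in the VPA vehicle libraries against 8.68 to 9.94 in the controls, and mouse control replicate 1 stands at 23.5 for H3K4me3, above all other mouse libraries.

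H3K9Ac was higher in VPA-exposed vehicle rats than in controls across nearly all of the regions. On the scale as deposited 553 of 579 tested regions (95.5%) rose and none fell (limma with Benjamini-Hochberg adjustment over all tested regions, adjusted p under 0.05), with a median log2 change of 0.83. The rise was general: 90.8% of all 17679 tested regions rose, with a median of 0.78, as did 97.4% of the compact island regions with 1 promoter and 98.8% of the longer ones. All changes are of log2(signal + 1), which understates the change of low values. After each library was centred on its median over all tested regions, 80 regions were past the threshold, 58 higher and 22 lower, where 23.9% of all regions were past it in either direction. After quantile normalization 1 region was past it, Zscan21, where 0.362% of all were.

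The region of Cisd3, Pcgf2, a tRNA gene and Psmb3 (chr10:85425800-85429999, rn5) showed the largest rise among regions with named genes whose 2 groups did not overlap. Cisd3 encodes a mitochondrial iron-sulfur protein, Pcgf2 a Polycomb RING finger protein and Psmb3 a proteasome subunit. Its H3K9Ac signal was 16.7, 11.6 and 13.7 in the controls, 45.3, 50.1 and 22.4 in the VPA vehicle group and 18.7, 27.0 and 18.5 in the TAK-418 group. All VPA vehicle libraries lay above all controls, and the log2 change was 1.36 ± 0.26 (SE, adjusted p = 8.67e-05). The region of Smg6, an endonuclease of nonsense-mediated decay, Hic1, a transcriptional repressor, and Mir212 and Mir132 (chr10:61714800-61722399) measured 6.63, 4.07 and 5.42, then 17.5, 19.7 and 8.44, then 8.77, 11.1 and 6.91, a rise of 1.29 ± 0.25 (adjusted p = 0.000131). Cep164, a centriole protein, and Bace1, the beta-secretase that cleaves the amyloid precursor (chr8:48756800-48759199), measured 12.4, 10.9 and 12.3, then 34.9, 36.6 and 18.6, then 18.5, 19.4 and 12.8, a rise of 1.21 ± 0.26 (adjusted p = 0.000217). In each of these the control and VPA vehicle groups did not overlap, and VPA vehicle replicate 3 was the lowest of its group. The Jun region (chr5:117956800-117964599) was high in every group, at 30.7, 26.6 and 25.3, then 67.5, 71.6 and 41.8, then 33.9, 41.7 and 29.0. Its rise of 1.07 ± 0.28 as deposited (adjusted p = 0.000674) was -0.027 after quantile normalization.

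H3K9Ac was lower with TAK-418 than with vehicle in VPA-exposed rats at 110 of 579 regions (19.0%) and higher at none, with a median log2 change of -0.52, where 9.56% of all tested regions fell, 0.017% rose and 9.58% moved in either direction, with a median of -0.41. The share was 27.8% in compact island regions with 1 promoter and 3.95% in longer island regions. This count rested on single libraries: it was 553 without VPA vehicle replicate 3, 0 without TAK-418 replicate 1, 1 without TAK-418 replicate 3 and 1 without either VPA vehicle replicate 1 or 2. Without single controls, which enter only through the shared estimate of the spread, it was 34, 10 and 4. Gpr27, an orphan receptor of the brain (chr4:196625400-196634799), measured 12.2, 9.35 and 8.08 in controls, 28.3, 26.6 and 16.9 with VPA and vehicle, and 8.91, 13.8 and 10.2 with VPA and TAK-418. The exposed groups did not overlap, the log2 change was -1.05 ± 0.25 (adjusted p = 0.00756), and the call held in 5 of 9 fits that each left out 1 library. Ctcf, the insulator protein that anchors chromatin loops (chr19:48464400-48471999), measured 18.0, 14.8 and 14.7, then 40.3, 37.4 and 24.7, then 15.5, 20.1 and 15.1, a fall of 0.95 on the log2 scale (adjusted p = 0.0168). Its TAK-418 libraries lay below all vehicle libraries, and the call held in 4 of 9 fits that each left out 1 library. Between TAK-418 and control rats 0 of 579 regions passed for H3K9Ac (limma), 22 had an unadjusted p under 0.05, and the median change was 0.30. The share of all tested regions under that unadjusted threshold is not given here. Without VPA vehicle replicate 3, which is in neither group, 177 passed. The comparisons share the VPA vehicle and the control libraries, so they are not independent.

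Relative to the other regions, a smaller set moved with TAK-418, at shares near or below those over all tested regions. Regions past the threshold in the same direction after both median centring and quantile normalization numbered 16 of 579, 9 higher and 7 lower, against 2.2% of all tested regions higher and 1.17% lower. The share higher was below that of all tested regions and the share lower was near it, so this count does not set the regions apart. This criterion was chosen after seeing the data. Median centring alone gave 193 regions, 17 higher and 176 lower, against 31.5% of all in either direction, and quantile normalization alone gave 29, 22 higher and 7 lower, against 3.98%. The count of 16 was 0 without TAK-418 replicate 1 and without VPA vehicle replicate 1 or 2, and 6 without TAK-418 replicate 3 or VPA vehicle replicate 3.

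Among the 7 that fell, Strn3, a striatin subunit of a protein phosphatase complex, and Ap4s1 of the AP-4 adaptor (chr6:82022000-82030999) measured 18.4, 14.2 and 13.3 in controls, 35.4, 38.8 and 25.4 with VPA and vehicle, and 15.0, 19.3 and 12.5 with TAK-418. The exposed groups did not overlap, and the change was -0.65 ± 0.10 after median centring (adjusted p = 0.00447) and -0.32 after quantile normalization (adjusted p = 0.0469). Cdk2ap1, a regulator of CDK2 (chr12:39535600-39539399), measured 6.37, 4.71 and 4.08, then 12.1, 10.9 and 8.67, then 5.08, 5.04 and 4.20, with changes of -0.60 and -0.61. The Mir17-1 to Mir92a-1 cluster (chr15:103634800-103642199), whose miRNAs are printed above, measured 4.86, 3.57 and 4.45, then 10.5, 10.4 and 6.38, then 4.39, 5.13 and 4.25. Its changes were -0.43 after median centring (adjusted p = 0.00554) and -0.47 after quantile normalization, with no overlap of the exposed groups. The zinc finger gene Zfp131 (-0.53 and -0.29) and the pair of Lipi, a lipase, and Rbm11, an RNA-binding protein (-0.38 and -0.37), were also in this set.

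The 9 that rose relative to the rest had TAK-418 signals close to the vehicle ones. Prpf38a, a splicing factor, and Orc1 of the origin recognition complex (chr5:132024000-132030599) measured 5.46, 5.20 and 6.59 in controls, 7.99, 9.19 and 5.42 with VPA and vehicle, and 8.44, 8.34 and 7.05 with TAK-418. The groups overlapped as deposited, where the change was 0.09, and the change was 0.49 ± 0.09 after median centring (adjusted p = 0.00555) and 0.49 after quantile normalization (adjusted p = 0.0297). Cir1 and Scrn3 (chr3:66504000-66510599), whose shared promoter is printed above, measured 8.96, 8.93 and 8.93, then 16.7, 16.4 and 10.8, then 12.7, 14.6 and 10.9, with a change of 0.22 after median centring (adjusted p = 0.0418) that was -0.17 as deposited. Akap3 and Ndufa9, a complex I subunit, had 0.35 (adjusted p = 0.0328), and Zfp184 with its neighbouring tRNA genes 0.29 (adjusted p = 0.015). The other 5 were Zscan21, 2 regions of histone H2A genes, Hist2h2aa3 and Hist1h2ail, and 2 regions of unnamed gene models. None of the 9 was called higher as deposited.

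**Figure D3:**
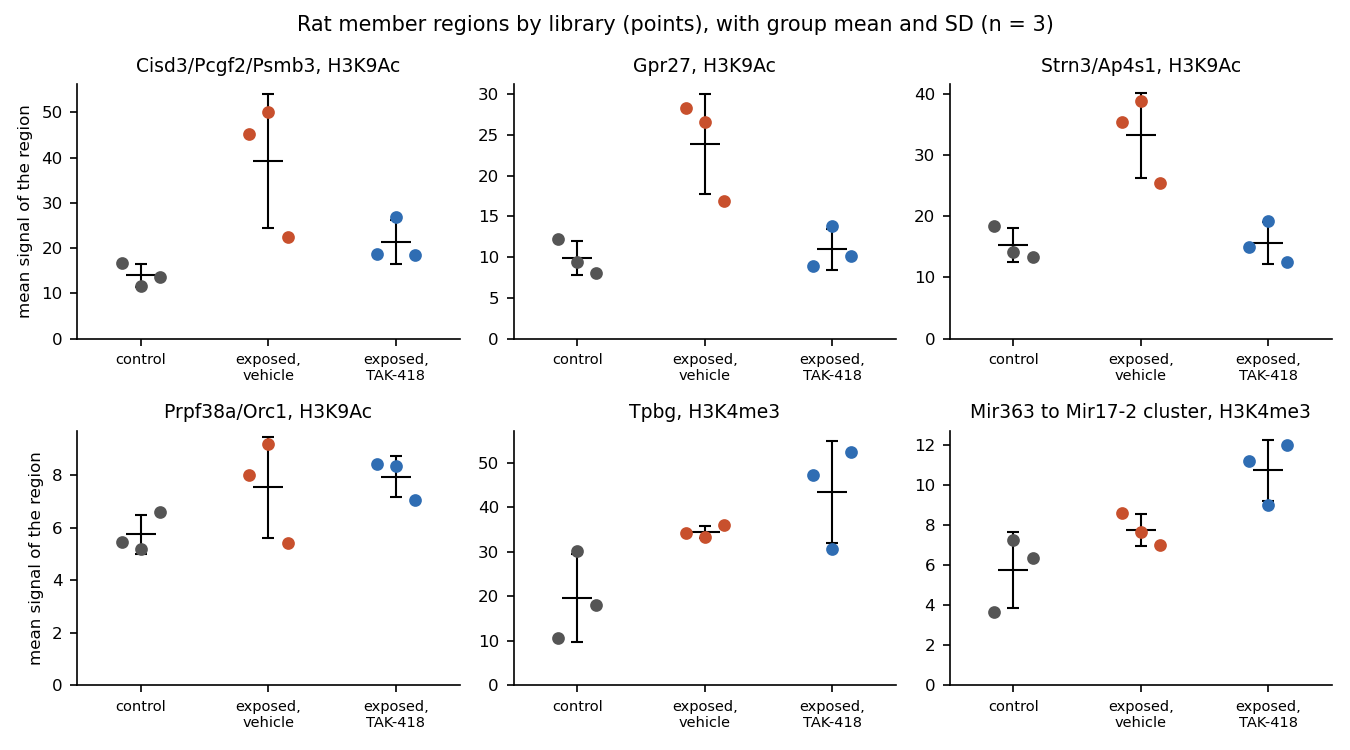
Signal in every rat library for 6 regions, with group means and SD bars (n = 3), in control, VPA vehicle and VPA TAK-418 animals. The H3K9Ac panels show VPA vehicle replicate 3 as the lowest of its group (22.4 beside 45.3 and 50.1 at Cisd3, Pcgf2 and Psmb3), and the H3K4me3 panels show TAK-418 replicate 2 as the lowest of its group (30.6 beside 47.2 and 52.5 at Tpbg).

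H3K4me3 was higher in VPA-exposed rats given TAK-418 than in controls at 403 of 587 regions (68.7%), with a median log2 change of 0.59, and lower at none. The rise was again general: 72.8% of all 14296 tested regions rose and 0.035% fell, with a median of 0.58, as did 76.7% of compact island regions with 1 promoter and 82.8% of the longer ones. No region passed after median centring or quantile normalization. The count ran from 29 without TAK-418 replicate 1 to 564 without TAK-418 replicate 2. It was 51 without control replicate 1, 196 without control replicate 3, 444 without control replicate 2 and 74 without TAK-418 replicate 3. Between VPA vehicle and control rats 5 regions rose, where 1.64% of all did. The count was 132 without control replicate 2, 61 without TAK-418 replicate 2, 7 without TAK-418 replicate 3, 1 without VPA vehicle replicate 1 and 0 without any of the other 5 libraries. TAK-418 against vehicle in exposed rats gave 0 of 587, where 0.224% of all passed. Of the 587, 15 had an unadjusted p under 0.05 (limma), and that share over all tested regions is not given here.

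Tpbg, a membrane glycoprotein that dampens Wnt signalling (chr8:93000800-93010399), was among the regions with the largest rises. Its H3K4me3 signal was 10.6, 30.1 and 18.1 in controls, 34.1, 33.3 and 36.0 with VPA and vehicle, and 47.2, 30.6 and 52.5 with VPA and TAK-418. The controls lay below all exposed libraries, and the rise over control was 0.90 with vehicle (adjusted p = 0.0332) and 1.19 ± 0.25 with TAK-418 (adjusted p = 9.09e-05). The Cisd3, Pcgf2 and Psmb3 region measured 16.0, 32.4 and 23.2, then 44.8, 46.7 and 42.7, then 68.9, 38.6 and 59.2, with rises of 0.93 ± 0.26 (adjusted p = 0.0353) and 1.20 (adjusted p = 0.000186). The call between VPA vehicle and control rats held in 3 of 9 fits that left out 1 library. The other 3 regions higher with VPA and vehicle were Usp43, a deubiquitinase (0.82, adjusted p = 0.0483), Actr10 of dynactin with Psma3 of the proteasome (0.69, adjusted p = 0.0353), and the region of Hspa1a, the inducible heat shock protein (0.50, adjusted p = 0.0327), whose groups overlapped.

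With TAK-418 against control, Ift80, a component of cilium transport, and Smc4 of condensin measured 22.8, 43.9 and 33.7 in controls, 52.8, 57.5 and 54.8 with vehicle and 87.2, 53.8 and 74.8 with TAK-418, a rise of 1.10 (adjusted p = 0.00107). Mir34c, Mir34b and Btg4 measured 8.05, 11.7 and 7.56, then 13.1, 13.5 and 20.3, then 23.8, 14.4 and 24.0, a rise of 1.09 (adjusted p = 9.09e-05). Pih1d3 and Nup62cl measured 3.13, 4.76 and 3.25, then 5.28, 4.18 and 6.38, then 12.7, 6.49 and 8.40, a rise of 1.09 (adjusted p = 9.43e-06). Zbtb1, a transcription factor of lymphoid cells, with the heat shock gene Hspa2 and Ppp1r36 measured 16.0, 26.7 and 22.4, then 31.4, 39.0 and 35.8, then 54.3, 32.0 and 48.4, a rise of 1.01 (adjusted p = 0.00102). In all 4 the TAK-418 and control groups did not overlap and TAK-418 replicate 2 was the lowest of its group.

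**Figure D4:**
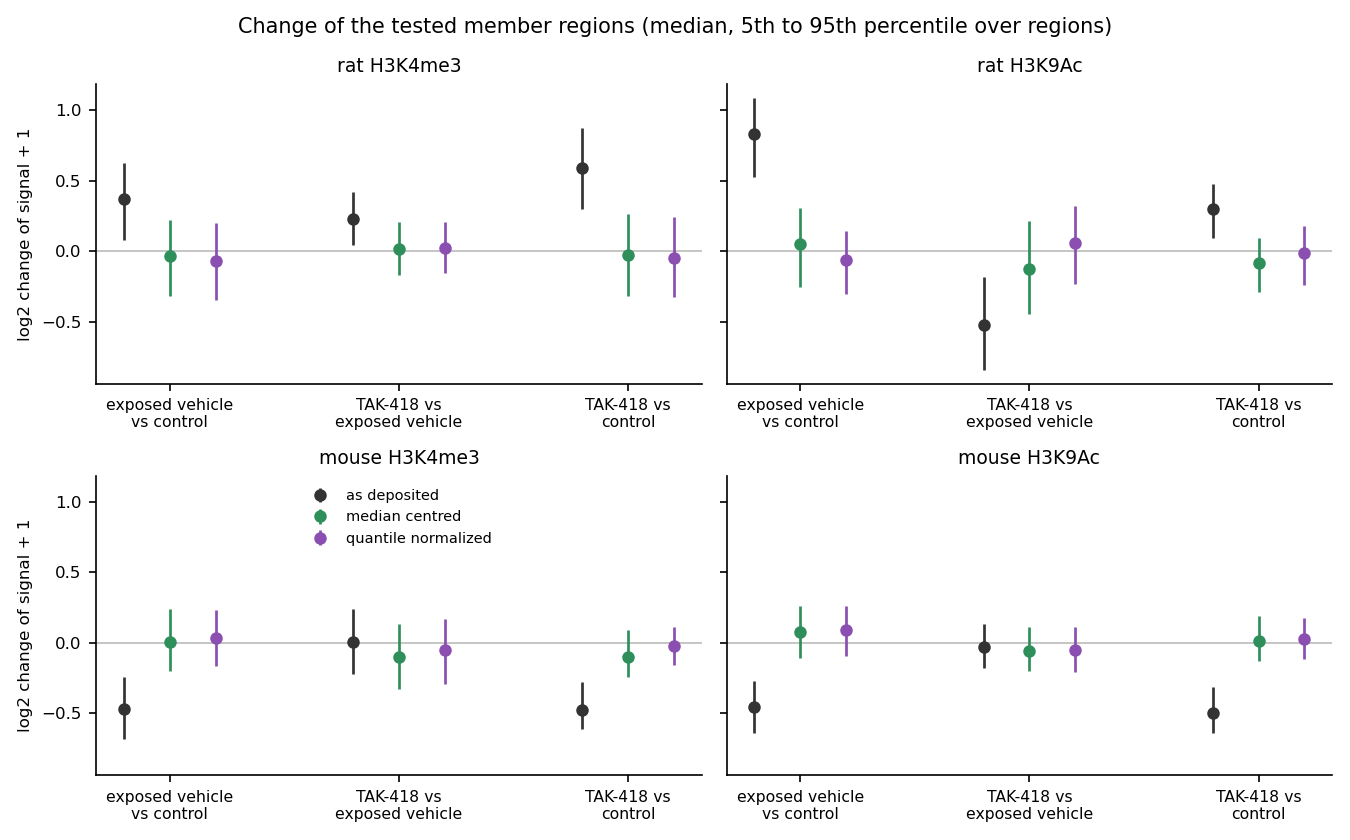
Log2 changes of the tested regions for H3K4me3 and H3K9Ac in rat and mouse, for 3 contrasts and 3 scalings between libraries; points are medians over regions and bars run from the 5th to the 95th percentile. As deposited the rat H3K9Ac median is 0.83 between VPA vehicle and control and -0.52 between TAK-418 and VPA vehicle, and its rescaled medians lie between -0.13 and 0.06.

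Regions with H3K27me3 formed a small class with its own active-mark levels. In the rat 25 of the 595 regions had an H3K27me3 interval in all 3 controls, and 20 of these had an H3K4me3 interval in all 3 controls as well. The 20 had a median control H3K4me3 of 12.5, H3K9Ac of 5.40 and H3K27me3 of 7.59, against 24.0, 9.13 and 1.76 in the 513 regions without an H3K27me3 interval in any control. In the mouse 15 had H3K27me3 and 9 of them H3K4me3. The highest mean control H3K27me3 of the rat, 35.5, lay over a group of tRNA genes with no H3K4me3 interval, a region named after its values were seen. The developmental factor Gata6 had 23.7, 24.6 and 8.08 in a short region with H3K4me3 of at most 3.82 and no H3K4me3 interval. Prkaca, the catalytic subunit of protein kinase A, with Palm3 measured 19.4, 30.6 and 8.75, and Fzd6, a Wnt receptor, 9.14, 15.6 and 3.98. Rat control replicate 3 was the lowest in these regions. With an interval asked for in 2 of 3 controls the rat count was 46 in place of 25, and without control replicate 3 it was 45.

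Several of these regions carried H3K27me3 in both species. Tpbg measured 14.5, 20.2 and 5.95 in rat controls and 4.77, 6.13 and 6.51 in mouse controls. The Hspa2 and Ppp1r36 region measured 11.5, 16.4 and 6.41 and then 5.67, 5.18 and 5.61, and the Nup62cl region 11.3, 16.6 and 4.22 and then 4.21, 5.92 and 5.61. The Mir363 to Mir17-2 cluster measured 6.37, 8.71 and 3.39 in the rat and 4.15, 5.33 and 5.77 in the mouse. In the mouse the class also held Fgf10, a growth factor, Zfp57, a zinc finger protein that maintains imprints, and the Mir34c, Mir34b and Btg4 region.

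The median rise of rat H3K4me3 between control and TAK-418 rats was larger in this class than in the other regions. All 20 regions with both marks were called, with changes of 0.59 to 1.19 and a median of 0.82, against a median of 0.57 in the 506 regions with an H3K4me3 interval in all 3 controls and no H3K27me3 interval in any. The gap of 0.26 was 0.18 to 0.43 when single libraries were left out, 0.26 after median centring and 0.31 after quantile normalization. The same direction held in the whole table, with medians of 0.66 and 0.55 and with 2911 of 3185 and 4527 of 7099 regions called. Between VPA vehicle and control rats the medians were 0.52 and 0.36, and between TAK-418 and vehicle 0.34 and 0.22. These medians carry no test of the difference between the classes, and the classes differ in their starting level of H3K4me3, whose part was not tested. For H3K9Ac 10 of 19 tested regions of this class fell with TAK-418 against vehicle, with a median of -0.74, against 79 of the 506 regions tested for H3K9Ac without an H3K27me3 interval in any control. In the whole table the shares did not go that way, with 330 of 3136 regions with both marks and 864 of 6947 with H3K4me3 and no H3K27me3 interval.

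H3K27me3 itself did not pass the test at any of the 48 rat or 24 mouse regions in any comparison (limma, Benjamini-Hochberg). The rat median change was 0.03 between VPA vehicle and control, 0.01 between TAK-418 and vehicle, and -0.02 between TAK-418 and control. In the mouse all 24 changes were negative for TAK-418 against vehicle, with a median of -0.48, and 23 passed without poly I:C vehicle replicate 3. The median over all 9238 tested regions was -0.46, and after median centring that of the 24 was -0.03.

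**Figure D5:**
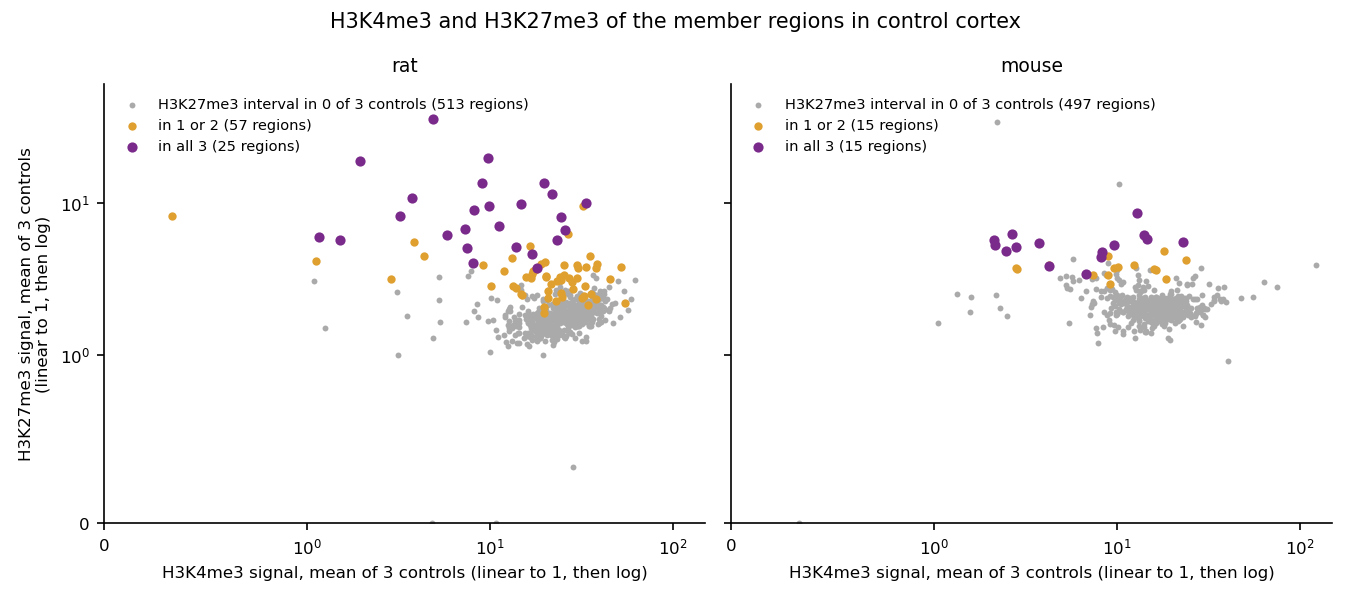
Mean control H3K4me3 against mean control H3K27me3 for each compact island region with several promoters, on axes that are linear up to 1 and logarithmic above, coloured by the number of controls with an H3K27me3 interval. In the rat 513 regions have none, 57 have 1 or 2 and 25 have 3, and in the mouse 497, 15 and 15.

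The printed miRNA clusters with seeds shared between regions had different levels of the marks, given here without a test. In rat controls the Mir17-1 to Mir92a-1 cluster had H3K4me3 of 9.02, 21.1 and 13.8 and no H3K27me3 interval. Mcm7, a replication helicase subunit that hosts Mir25, Mir93 and Mir106b in an intron (chr12:21351200-21358399, rn5), had 14.9, 17.0 and 19.6. The Mir363 to Mir17-2 cluster (chrX:140167600-140172799) had 3.65, 7.28 and 6.37 and an H3K27me3 interval in every control. The mouse order was the same, with mean control H3K4me3 of 9.18 at the Mir17 cluster, 13.4 at Mcm7 and 2.82 at the X-linked cluster (chrX:52741600-52746599, mm10), where H3K27me3 averaged 5.08. With TAK-418 the X-linked rat cluster reached 11.2, 9.04 and 12.0 from 8.63, 7.67 and 7.00 with vehicle, above all controls, a rise over control of 0.83 (adjusted p = 0.00157) that held in 8 of 9 fits that left out 1 library. H3K9Ac at Mcm7 was 7.94, 7.65 and 7.71 in controls, 16.6, 17.6 and 9.04 with VPA and vehicle and 10.8, 12.1 and 8.43 with TAK-418. At the X-linked cluster it was 2.66, 1.78 and 2.68, then 4.64, 4.50 and 3.17, then 1.97, 2.99 and 2.55. Of the 14 rat regions that list a miRNA and were tested for H3K9Ac, 14 rose with VPA and 5 fell with TAK-418 against vehicle, beside 90.8% and 9.56% of all tested regions. The fall was counted in the contrast whose total ran from 0 to 553 when single libraries were left out.

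The regions included known head-to-head pairs, among them pairs of repair and replication genes. For Atm, the DNA damage kinase, and Npat, an activator of histone genes, H3K9Ac was 9.84, 8.59 and 9.12 in rat controls, 20.5, 20.7 and 12.9 with VPA and vehicle, and 12.3, 13.2 and 9.18 with TAK-418, a rise with VPA of 0.88 (adjusted p = 0.00159). Its H3K4me3 group means were 22.0, 35.3 and 40.7 in the same order, a rise with TAK-418 over control of 0.86 (adjusted p = 0.00387). The rise with VPA was -0.030 after quantile normalization. Prkdc, the DNA-dependent protein kinase, and Mcm4, a replication helicase subunit, had H3K9Ac means of 10.9, 20.1 and 13.5. Psmb1 of the proteasome and the TATA-binding protein Tbp had 9.28, 15.9 and 12.7, Ndufaf2 and Ercc8 8.10, 14.1 and 10.9, and Pdcd10 with Serpini1, which encodes neuroserpin, 12.6, 25.8 and 16.1. These 5 pairs were all called higher for H3K9Ac with VPA, and Atm with Npat, Psmb1 with Tbp and Pdcd10 with Serpini1 were called higher for H3K4me3 with TAK-418 against control, beside 90.8% and 72.8% of all tested regions. None of the 5 was called lower for H3K9Ac with TAK-418 against vehicle, where 9.56% of all were.

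Gene groups in the regions are given by their counts. Of the regions that list a DNA repair or replication gene, 17 of 19 rose for H3K9Ac with VPA (median 0.76), and 0 of 19 fell with TAK-418 against vehicle. Proteasome regions rose in 8 of 8 (median 0.84), mitochondrial ribosome regions in 8 of 8, cytosolic ribosome regions in 10 of 12, respiratory chain regions in 10 of 12, tRNA synthetase regions in 4 of 4, chromatin regulator regions in 6 of 6 (median 0.98), and zinc finger regions in 10 of 13. With TAK-418 against vehicle, 3 of 6 chromatin regulator, 2 of 8 proteasome, 2 of 13 zinc finger and 2 of 12 RNA polymerase and splicing regions fell. For H3K4me3 between TAK-418 and control rats, 8 of 8 proteasome (median 0.68), 10 of 12 respiratory chain and 9 of 19 DNA repair and replication regions rose. No synaptic or interferon list gene was in a region of either species, and 4 of 230 developmental transcription factors of the rat table were. These shares stand beside 90.8%, 9.56% and 72.8% over all tested regions. The lists were chosen with earlier results of these data known.

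In the mouse H3K9Ac was lower in poly I:C-exposed vehicle animals than in controls at 144 of 477 regions (30.2%), with a median log2 change of -0.46. Over all 12747 tested regions 64% fell with a median of -0.53, as did 31.3% of compact island regions with 1 promoter and 75.1% of longer ones. None passed after median centring or quantile normalization. Without control replicate 3 the count was 420, without TAK-418 replicate 1 it was 36, without TAK-418 replicate 3 it was 188 and without vehicle replicate 1 it was 120. It was 0 without any of the other 5 libraries. Lgr4, a receptor for R-spondins in Wnt signalling (chr2:109916400-109923399, mm10), measured 14.3, 12.0 and 8.44 in controls, 6.76, 4.85 and 6.76 with poly I:C and vehicle, and 8.28, 7.61 and 4.90 with TAK-418. Its control and vehicle groups did not overlap, and the change was -0.80 ± 0.26 (adjusted p = 0.032). Spata1, the G protein subunit gene Gng5 and the ribosome factor gene Rpf1 measured 9.16, 6.57 and 5.33, then 4.18, 3.23 and 3.59, then 4.78, 4.40 and 3.66, a change of -0.76. Mir130b, Mir301b and the chaperone component gene Sdf2l1 measured 16.1, 10.4 and 8.26, then 7.86, 4.76 and 6.67, then 7.02, 6.47 and 5.85, a change of -0.74. Atm and Npat measured 13.5, 9.97 and 6.83, then 6.82, 5.05 and 6.38, then 6.82, 7.00 and 4.51, a change of -0.61 (adjusted p = 0.0365) that held in 3 of 9 fits that left out 1 library. In these regions control replicate 1 was the highest of its group. DNA repair and replication regions fell in 3 of 17, proteasome regions in 0 of 3, mitochondrial ribosome regions in 0 of 5 and zinc finger regions in 1 of 13. Cytosolic ribosome regions fell in 3 of 10, respiratory chain regions in 3 of 9 and RNA polymerase and splicing regions in 2 of 10. Chromatin regulator regions fell in 2 of 3, tRNA synthetase regions in 2 of 2, ion channel regions in 3 of 6 and cell cycle regions in 2 of 4. These small groups stand beside 64% of all tested regions.

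TAK-418 against vehicle gave 0 of 477 mouse H3K9Ac regions with a median change of -0.03. TAK-418 against control gave 0 with a median of -0.50, where 283 had an unadjusted p under 0.05, and 440 passed without control replicate 3 and 177 without vehicle replicate 2. Mouse H3K4me3 gave 0 of 494 in each of the 3 comparisons as deposited (limma, Benjamini-Hochberg), with 117 (poly I:C vehicle and control), 2 (TAK-418 and vehicle) and 67 (TAK-418 and control) at an unadjusted p under 0.05. The shares of all tested regions under that unadjusted threshold are not given here. These counts and the 283 for H3K9Ac therefore do not set the regions apart. Without control replicate 3, 219 regions passed at the adjusted threshold between poly I:C vehicle and control mice, in place of 0. After both rescalings 3 regions were lower with TAK-418 than with vehicle, where 0.201% of all regions were. Lsm11, a component of the histone mRNA processing complex, and Thg1l, a tRNA-modifying enzyme, measured 11.4, 6.88 and 7.30 in controls, 9.15, 8.62 and 7.33 with vehicle, and 5.35, 5.18 and 5.96 with TAK-418, a change of -0.63 ± 0.08 after median centring (adjusted p = 0.0269) with no overlap of the exposed groups. The others were Gprasp1 with Armcx5 (-0.47, adjusted p = 0.0364) and Ccdc22 with Cacna1f, a calcium channel gene (-0.44, adjusted p = 0.0269). The count of 3 was 61 without vehicle replicate 1, 1 without TAK-418 replicate 2 and 0 without any of the other 7 libraries.

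A group of mouse regions had high H3K4me3 signal but few called intervals, and so stayed outside the tests. Of 33 regions with an H3K4me3 interval in fewer than 3 of 9 libraries, 19 had a mean signal over 10, ranging from 10.7 to 84.0, and the other 14 ranged from 0.333 to 4.54. The whole mouse table held 32 such regions, so 59.4% of them were compact island regions with several promoters. Of the 20 regions with the highest control H3K4me3, 13 were in this group. Their median length was 3999 bp, and 16 of the 19 listed 3 or more genes, a share not counted here over the other regions. Regions with 3 or more promoters made up 3 of the 19 and 38 of the 527 mouse regions, a higher share in the small group of 19. The Surf locus (chr2:26910400-26911199, mm10), with Surf1, Surf2, Surf4, Surf6, Med22 and the ribosomal gene Rpl7a, had no interval in any library and measured 192, 92.3 and 81.8 in controls, 74.6, 55.5 and 66.8 with poly I:C and vehicle, and 68.3, 57.0 and 67.6 with TAK-418. Midn and Cirbp, a cold-inducible RNA-binding protein (chr10:80167400-80168599), measured 118, 53.4 and 52.6, then 50.0, 39.8 and 48.3, then 45.7, 41.9 and 41.2. At both loci all controls lay above all exposed libraries. With every region tested, all 19 were lower with poly I:C and vehicle than in controls (median -0.76) and lower with TAK-418 than in controls (median -0.57), and 0 passed. In the rat 8 of the compact regions had fewer than 3 intervals, and their signals of 0.833 to 8.84 were low.

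H3K9me3 touched few of the regions. Of 17 tested in the rat, 3 rose with VPA and vehicle over control (17.6%, median 0.36), where 56.2% of all tested regions did. Ggta1, a galactosyltransferase, measured 3.77, 5.43 and 6.42 in controls, 8.67, 11.3 and 8.04 with VPA and vehicle, and 11.0, 6.54 and 6.47 with TAK-418. The control and VPA vehicle groups did not overlap, and the rise was 0.75 ± 0.33 (adjusted p = 0.0468). The others were Lipi with Rbm11 (0.56, adjusted p = 0.0262) and the Hspa1a region (0.53, adjusted p = 0.0484). Lipi with Rbm11 also rose with TAK-418 over control (0.59, adjusted p = 0.0273), the only 1 of 17, where 39.5% of all did. None of these passed after median centring or quantile normalization, and the count of 3 was 0 without any single control or without VPA vehicle replicate 1 or 2, 1 without VPA vehicle replicate 3 or TAK-418 replicate 2, and 9 without TAK-418 replicate 1. The imprinted gene Mest with Copg2 had the highest named signal, at 3.58, 11.1 and 9.35, then 14.6, 11.7 and 8.50, then 9.92, 8.56 and 5.32, with overlapping groups and no call. In the mouse 4 regions were tested and 0 passed.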

How the data were processed

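Chromatin from brain cortex, flash frozen and fixed with formaldehyde per the labels' protocols, was precipitated for each mark. The 72 ChIP libraries, 36 of them from rats, were analysed, and the 2 pooled inputs among the 74 samples were not analysed here. Reads were aligned with BWA 0.7.12 to mm10 and rn5, per the submitters' processing notes. For the interval caller, the scaling between libraries and the depth: not given in the sources used here. The values are the mean signal of each library over merged regions, as the authors deposited them in 1 table per species, with counts of called intervals, promoters and CpG islands per region. No value column was left unmatched (0).

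From these, log2(signal + 1) was fitted with limma 3.58.1 in R 4.3.3 (trend and robust variance), 1 model per species and mark over 9 libraries in 3 groups of 3. Regions with an interval in at least 3 of 9 libraries were tested. P-values were adjusted by Benjamini-Hochberg over all tested regions of the table, with a threshold of 0.05. The model was run on simulated data with independent noise for each region. That simulation left out the shift shared by a library, so it cannot speak to counts that depend on the scaling between libraries. The 3 contrasts share groups. The alternatives were median centring, quantile normalization, no interval filter, the replicate number as a block and leaving out each library. The criterion of passing under both rescalings was chosen after seeing the data.

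Regions were named by rule: the highest control levels, up to 5 largest increases and decreases past the threshold without overlap of the groups, list members with the smallest p, known head-to-head pairs, and regions with H3K27me3 or H3K9me3 intervals in all controls. The result of 1 known head-to-head pair is not reported here. The regions and gene lists were chosen with earlier results of these data known. Promoter and miRNA sequences and gene orientation came from RefSeq (GRCr8), matched by symbol. They were not used with the rn5 coordinates of the files. Python 3.11.15 with pandas 2.3.3 and numpy 2.4.6 was used for tables and figures.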

Additional observations from a re-analysis of the deposited data

How the results depend on the processing

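Signal depth is unknown, so precision rests on 3 libraries a group, and the scaling between libraries decides most counts. Median centring gave 0 called regions for rat H3K4me3 (VPA vehicle against control and TAK-418 against control), rat H3K9me3 (both of these) and mouse H3K9Ac (poly I:C vehicle against control), 80 for rat H3K9Ac with VPA, 193 for TAK-418 against vehicle and 3 for mouse H3K4me3 with TAK-418 against vehicle. Quantile normalization and both rescalings together gave the same 0s and the same 3. For rat H3K9Ac they gave 1 region with VPA, now lower, and for TAK-418 against vehicle 29 and 16, now mostly higher. Without the interval filter the counts were 0 for rat H3K4me3 in both comparisons, for rat H3K9Ac with TAK-418 against vehicle and for mouse H3K9Ac with poly I:C, and 1 for rat H3K9me3 with VPA, in the other direction. An interval in at least 2 of 3 controls was found in 46 rat regions for H3K27me3 (25 in all 3), 10 for H3K9me3 (1) and 4 in the mouse for H3K9me3 (0). Single regions turned direction: Jun -0.027, Atm with Npat -0.030 and Ggta1 -0.020 after quantile normalization, and, as deposited, Akap3 with Ndufa9 -0.044, Zfp184 -0.11 and Cir1 with Scrn3 -0.17. The cause was not tested.

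The replicate numbers showed no regular pairing of the libraries. Of 9 same-number correlations of deviations from the group means, 0 to 5 exceeded 0.1 for each mark and species. From 1 to 6 of 9 libraries were closest to their own number, with the 6 in mouse H3K4me3. This check cannot exclude a pairing. With the replicate number as a block the counts were 0 (rat H3K4me3 with VPA), 186 (rat H3K4me3, TAK-418 against control), 340 (rat H3K9Ac, TAK-418 against vehicle), 0 and 0 (rat H3K9me3), 305 (mouse H3K9Ac with poly I:C), 372 (mouse H3K9Ac, TAK-418 against control) and 5 (rat H3K9Ac, TAK-418 against vehicle, both rescalings).

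Leaving out each library in turn gave ranges, in the order exposed vehicle against control, TAK-418 against vehicle and TAK-418 against control, of 0 to 132, 0 to 3 and 29 to 564 for rat H3K4me3, 438 to 579, 0 to 553 and 0 to 177 for rat H3K9Ac, and 0 to 9, 0 to 0 and 0 to 2 for rat H3K9me3. For mouse H3K4me3 the first 2 ranges were 0 to 219 and 0 to 5. For mouse H3K9Ac the first was 0 to 420 and the last 0 to 440, and for mouse H3K27me3 with TAK-418 against vehicle the range was 0 to 23. Under both rescalings the TAK-418 against vehicle counts were 0 to 18 for rat H3K9Ac and 0 to 61 for mouse H3K4me3. Control interval counts ran from 25 to 45 for rat H3K27me3, 1 to 10 for rat H3K9me3 and 0 to 3 for mouse H3K9me3. All other ranges were 0 to 0 or within 1.5 times the count with every library.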
